A study of Mus musculus with 6 samples.

Results

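The 10 genes described here encode the oxygen-sensing machinery built around Vhl, the gene deleted in the study, and the hypoxia-inducible factors (HIF) that its product helps to destroy. They are Vhl, the HIF alpha subunit genes Hif1a, Epas1 and Hif3a, the partner subunit genes Arnt and Arnt2, the prolyl hydroxylase genes Egln1, Egln2 and Egln3, and the asparaginyl hydroxylase gene Hif1an. Their probe sets (groups of short probes that together report 1 transcript) were taken by gene symbol from the array's annotation, whatever their values. This gave 30 of 45037 probe sets and 10 of 11159 genes tested. The 10 genes themselves were chosen with earlier results of these data known. The arrays measured RNA from glomeruli, the filtering units of the kidney, of 6 female mice at 6 weeks of age. In 3 mice a Cre recombinase under podocin control had excised floxed Vhl in podocytes, the epithelial cells on the outside of the glomerular capillaries, and 3 littermates labelled wildtype were the controls. The sources used here do not give whether the controls carried floxed alleles, and the mice with the deletion were picked for urinary albumin that did not exceed the littermates' average. Each mouse gave 1 array, and n = 3 per group throughout; wild-type arrays are also called controls and Vhl-deleted arrays mutants.

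A HIF is a pair of an alpha subunit and an ARNT subunit. When oxygen is present, the EGLN enzymes hydroxylate prolines of the alpha subunit, the VHL protein binds the hydroxylated form, and the ligase around VHL marks it for degradation. The enzyme encoded by Hif1an hydroxylates an asparagine of the alpha subunit and thereby blocks its contact with the coactivators Ep300 and Crebbp. Most of this control acts on protein, which these arrays do not measure. Egln1 and Egln3 are also known as target genes of HIF, a feedback in which the factor raises the enzymes that mark it.

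Values are MAS5 signals, the linear brightness that the array software assigns to a probe set. Changes are log2 differences of signal + 28, Vhl-deleted minus wild-type, with the standard error (SE) and the 95% interval from limma, a linear model fitted over all genes, and every adjusted p is from limma with Benjamini-Hochberg adjustment over all genes or all probe sets tested. Every array had a trimmed mean of 500, and the median signal lay between 94.6 and 107.5. Podocyte identity was visible on all arrays: 10 of 12 podocyte markers were tested, and their summed signal lay between 91840 and 124700 in controls and between 88930 and 105000 in mutants. Markers of other cells were present too. For 15 tubule markers the sum reached 113200 and 124400 in control replicates 1 and 2 but 39350 in wild-type replicate 3, and the Vhl-deleted sums ran from 98070 to 158800. The summed signal of 6 of 7 leukocyte markers was 3282 to 5035 in controls and 5738 to 8849 in mutants. Of these 6, Cd74, H2-Aa and Ptprc were higher in every mutant array, with changes of 1.02, 0.94 and 0.67. Lyz2, Cd68 and Adgre1 overlapped between groups, at 0.56, 0.14 and -0.13, and none of the 6 passed. For 7 of 8 mesangial and smooth muscle markers the summed signal was 35020 to 40870 in controls and 41680 to 44780 in mutants. For 9 endothelial markers the sums were 65680 to 82960 and 70490 to 82470. Wild-type replicate 3 therefore stands apart from the other arrays, and values without it are given below. The summed signals of the leukocyte and mesangial lists separate the groups, whereas the mean log2 level of the mesangial list overlaps (11.23 in control replicate 3, above the 11.2 of mutant replicate 2), and their part in the results was not tested. In the fit, 9 of the 10 podocyte markers had a change below 0 (median -0.31) and all 15 tubule markers one above 0 (median 0.57), and none of either list passed. The groups did not overlap in 3 of the 10 podocyte markers, where this held for 10.7% of all genes. Lmx1b (-0.53) and Plce1 (-0.57) were lower in every mutant array, and Cdkn1c (0.48) was higher. No tested marker of any of these lists was below a signal of 57.6 on any array.

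Of the 10 genes, Egln3 rose about 29-fold by signal in the Vhl-deleted glomeruli and was the gene of lowest p on the whole array. The other 9 did not pass the test, with changes between -0.996 and 0.29. Over all genes tested, 0.0717% rose and 0.00896% fell. Of the 10 genes, 5 had an unadjusted p below 0.05, where 4.92% of all genes did: Arnt, Arnt2, Egln1, Egln3 and Hif1an. The arrays of the groups did not overlap in 5 of the 10 genes, where this held for 10.7% of all genes. The Vhl-deleted arrays lay above the wild-type arrays in Egln1 and Egln3, where 5.04% of all genes showed this, and below them in Vhl, Arnt and Hif1an, where 5.64% did. No test was made of these counts. Glomerular RNA is a mixture, so that fewer cells of a type and less RNA per cell cannot be told apart.

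**Figure D1:**
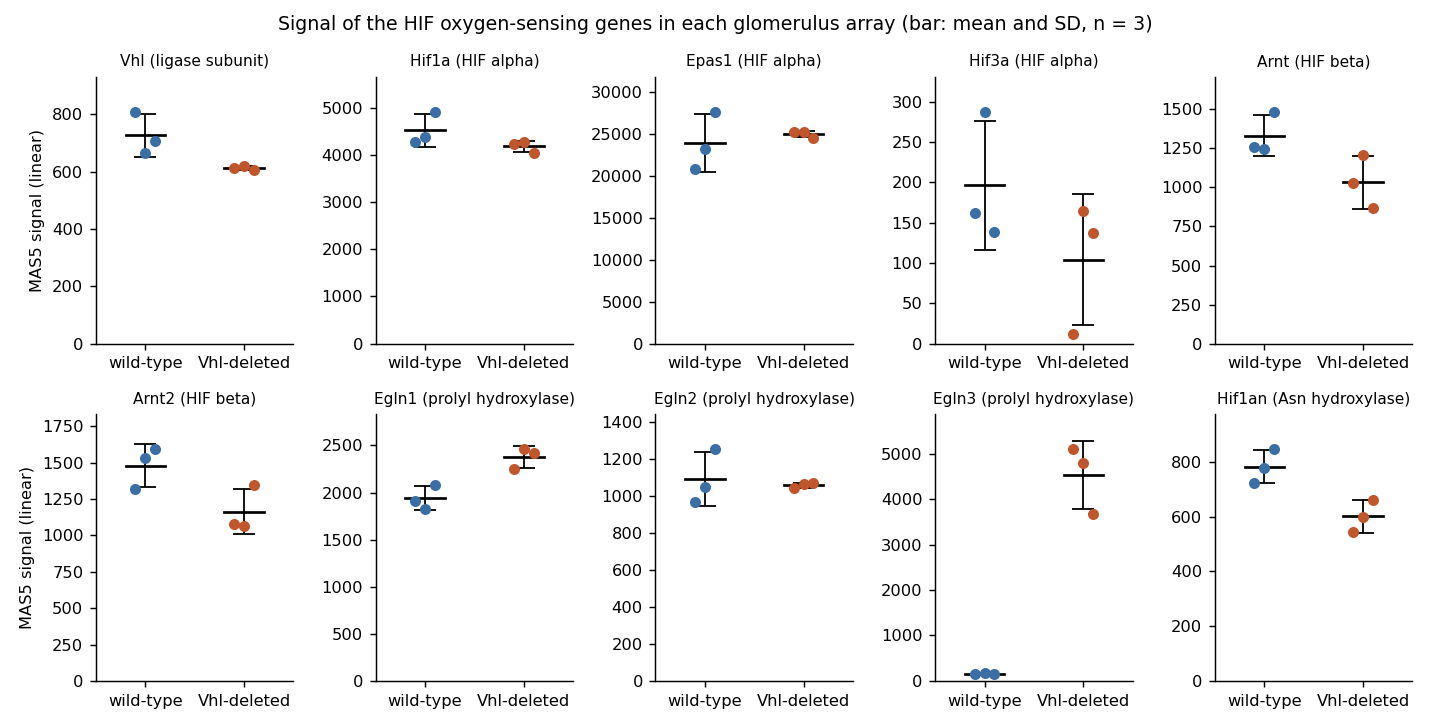
MAS5 signal (linear axis from 0, a separate scale for each gene) of the probe set that stands for each of the 10 genes, with 1 point per array, 3 wild-type (blue) and 3 Vhl-deleted (orange), and the mean and SD in black. Egln3 went from 154 to 4523 on average, while the other genes differed by far less.

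Vhl, the deleted gene, was measured by 2 probe sets. The brighter of them, 1434708_at, read 809, 665 and 707 in wild-type replicates 1 to 3 and 612, 619 and 606 in Vhl-deleted replicates 1 to 3. The Vhl-deleted arrays lay close together and below every wild-type array. The means were 727 ± 74.1 and 612 ± 6.46 (SD, n = 3), a log2 change of -0.23 (SE 0.12, 95% interval -0.51 to 0.04, adjusted p = 0.944), which is a fitted ratio of 0.85 with bounds of 0.704 and 1.03. The second probe set, 1421071_at, read 228, 237 and 273 in controls and 233, 196 and 216 in mutants, and its groups overlapped. The Cre is driven in podocytes, other glomerular cells keep their Vhl, and the sources used here do not give where the probes lie relative to the excised part, so these values check the labels only in part.

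Hif1a and Epas1, the alpha subunit genes best known as drivers of the hypoxic response, showed no difference beyond the spread between mice. Hif1a (1427418_a_at) read 4261, 4387 and 4909 in controls and 4223, 4274 and 4042 in mutants. The groups overlapped, and the change of -0.11 (SE 0.10, adjusted p = 0.944) has an interval that reaches from a ratio of 0.791 to 1.09. The other Hif1a probe sets above the filter on low values differed by 0.01 (1416035_at, -0.04 with median scaling) and 0.08 (1448183_a_at), and 1431981_at was dim, with signals between 3.34 and 44.3.

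Epas1 (1435436_at) read 20810, 23140 and 27580 in controls and 25140, 25230 and 24490 in mutants. The wild-type arrays spread around the Vhl-deleted ones on both sides. The change was 0.08 (SE 0.12, adjusted p = 0.944; ratio bounds 0.863 and 1.29), and it turned to -0.01 with quantile normalization and to -0.02 without wild-type replicate 1. The second Epas1 probe set, 1449888_at, read 1316, 1367 and 545 in controls and 1135, 1435 and 1219 in mutants. In wild-type replicate 3, the array with the low tubule signal, the brighter probe set was thus at its highest and the dimmer one at its lowest. The difference between the probe sets was 5.59 on the log2 scale in that array, against 3.95 to 4.44 in the other 5, and whether the tubule signal has a part in this was not tested. Without that array the change of 1449888_at turned from 0.33 to -0.09.

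Hif3a, an alpha subunit gene whose shorter products can restrain the others, was near the limit of measurement. Only 1 of its 6 probe sets, 1425428_at, passed the filter, which corresponds to a signal of about 96.4. It read 162, 287 and 139 in controls and 11.8, 164 and 137 in mutants. A single Vhl-deleted array, replicate 1, set the difference: the change was -0.996 (SE 0.60, 95% interval -2.42 to 0.43, adjusted p = 0.944) with it and -0.28 without it. The pseudocount and array weights also moved it, to -0.60 with pseudocount 100 and -1.63 with array weights. The other 5 probe sets had signals between 1.18 and 47.2 on all arrays and gave no usable comparison.

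Arnt, the common partner subunit, is represented by 5 probe sets. The probe set that stands for it, 1419996_s_at, read 1262, 1247 and 1484 in controls and 1028, 1207 and 866 in mutants, and the lowest wild-type array lay just above the highest Vhl-deleted one. The means were 1331 ± 133 and 1033 ± 171 (SD, n = 3), a change of -0.36 (SE 0.15, 95% interval -0.71 to -0.01, adjusted p = 0.944). Its suffix marks probes that can be shared with other transcripts. The probe set 1421721_a_at, at 326, 350 and 365 in controls and 314, 309 and 280 in mutants, did not overlap between groups either, with a change of -0.19. The others differed by -0.10 (1437042_at), 0.03 (1425064_at, SE 0.26) and 0.11 (1449696_at, SE 0.30, below the filter). The values above 0 thus belong to the dimmest probe sets of Arnt, with signals of 72.9 to 135.5 and 51.1 to 104.8. All brighter ones lay below 0, and the mean change of the probe sets above the filter was -0.16. The value of 1425064_at turned negative with quantile normalization (-0.02), median scaling (-0.02) and the tubule covariate (-0.09).

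Arnt2, a close relative of Arnt best known from neurons and the kidney, had a difference of similar size. Its main probe set, 1434028_at, read 1317, 1533 and 1593 in controls and 1080, 1068 and 1345 in mutants. Vhl-deleted replicate 3 lay just above the lowest wild-type array, so the groups overlapped. The change was -0.34 (SE 0.13, 95% interval -0.66 to -0.03, adjusted p = 0.944). The dimmer probe set 1420670_at, at 101 to 117 in controls and 91.2 to 97.2 in mutants, had a change of -0.18 without overlap. The third, 1420669_at, lay below the filter and had a change of 0.20.

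Among the prolyl hydroxylase genes, Egln3 differed sharply from Egln1 and Egln2. Egln3 (1418649_at) read 144, 171 and 149 in controls and 5098, 4792 and 3678 in mutants. Every Vhl-deleted array exceeded every wild-type array by a wide margin, and the spread within the groups was small beside it. The means were 154 ± 14.6 and 4523 ± 747 (SD, n = 3), a ratio of signals of 29.3 and a log2 change of 4.63 (SE 0.15, 95% interval 4.27 to 4.99, adjusted p = 9.74e-05). The pseudocount lowers the fitted ratio to 24.8, with bounds of 19.3 and 31.7. The second probe set, 1418648_at, read 54.8, 122 and 110 in controls and 3468, 3523 and 3118 in mutants, a change of 4.83 (adjusted p = 0.000376 over all probe sets, in the fit without a filter). Its control mean, 95.5, lies below the filter signal of 96.4, so it passed the filter only through the mutants, and the size of its change depends on the pseudocount, with 4.16 at pseudocount 100 and 5.20 at pseudocount 1. Both probe sets of Egln3 rose, where 0.0333% of all probe sets did, and within the Vhl-deleted group replicate 3 was the lowest on both.

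Egln1, which encodes the main oxygen sensor of most tissues, had values of opposite sign on its probe sets. The brighter one, 1423785_at, read 1913, 1829 and 2083 in controls and 2250, 2460 and 2425 in mutants, all Vhl-deleted arrays above all wild-type ones. Its change was 0.29 (SE 0.10, 95% interval 0.05 to 0.53, adjusted p = 0.889), a ratio of 1.22. The other, 1451110_at, read 688, 619 and 705 in controls and 532, 678 and 536 in mutants, with overlap and a difference of -0.20. The log2 difference between these probe sets was 1.496 ± 0.05 in controls and 1.99 ± 0.15 (SD, n = 3) in mutants, which do not overlap (exact two-sided permutation p = 0.1, the smallest that 3 against 3 arrays allow; 0.5 after adjustment over the 10 such comparisons of probe sets of 1 gene). With the mean of both probe sets the difference was 0.04.

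Egln2, the prolyl hydroxylase gene that is not known to respond to HIF in most cells, has 1 probe set. It read 970, 1052 and 1255 in controls and 1046, 1065 and 1071 in mutants, with the Vhl-deleted arrays inside the wild-type range. The change was -0.03 (SE 0.12, adjusted p = 0.972; ratio bounds 0.8 and 1.19) and turned to 0.07 without wild-type replicate 3, to 0.04 with the mean level of the tubule markers as a covariate and to 0.04 with array weights.

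The difference in response within this enzyme family was also taken inside each array. There, an amount added to all log2 values of an array cancels. A factor on the signals cancels only in part, because of the pseudocount, and the effect of quantile normalization does not cancel. The log2 difference of Egln3 from Egln1 was -3.4995, -3.22 and -3.58 in controls and 1.17, 0.95 and 0.60 in mutants, a shift of 4.34. That shift was 3.89 with pseudocount 100 and 4.56 with pseudocount 1. The shift of Egln3 against Egln2 was 4.66 and that of Egln1 against Egln2 was 0.32. The groups did not overlap in any of these, and each had an exact two-sided permutation p = 0.1, again the smallest possible and also 0.1 after adjustment over 6 pairs. The remaining pairs, fixed for the subunits, moved by -0.19 for Hif1a against Epas1, -0.26 for Arnt against Hif1a and -0.44 for Arnt against Epas1, each likewise without overlap and with an exact two-sided permutation p = 0.1. For Arnt against Hif1a the separation was narrow: the lowest control value was -1.792 and the highest mutant value -1.801. How often within-array differences separate the groups over other pairs of genes was not computed. The lack of overlap is therefore not a trait of these pairs. None of the 6 pairs could pass the threshold of 0.05 in this design. The 6 pairs are also not independent. The shift of Egln1 against Egln2 follows from the other enzyme pairs, and that of Arnt against Epas1 from the other subunit pairs. With quantile normalization Hif1a against Epas1 was -0.10 (exact two-sided permutation p = 0.2), and without Vhl-deleted replicate 3 Arnt against Hif1a was -0.16. A difference within an array does not say which gene of the pair it comes from. Each gene entered the pairs with its main probe set only. The other Egln1 probe set, 1451110_at, changed by -0.20, where Egln2 changed by -0.03. The sign of Egln1 against Egln2 thus depends on the probe set. Hif1a 1448183_a_at changed by 0.08, beside 0.08 for Epas1, and Arnt 1437042_at by -0.10, beside -0.11 for Hif1a.

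**Figure D2:**
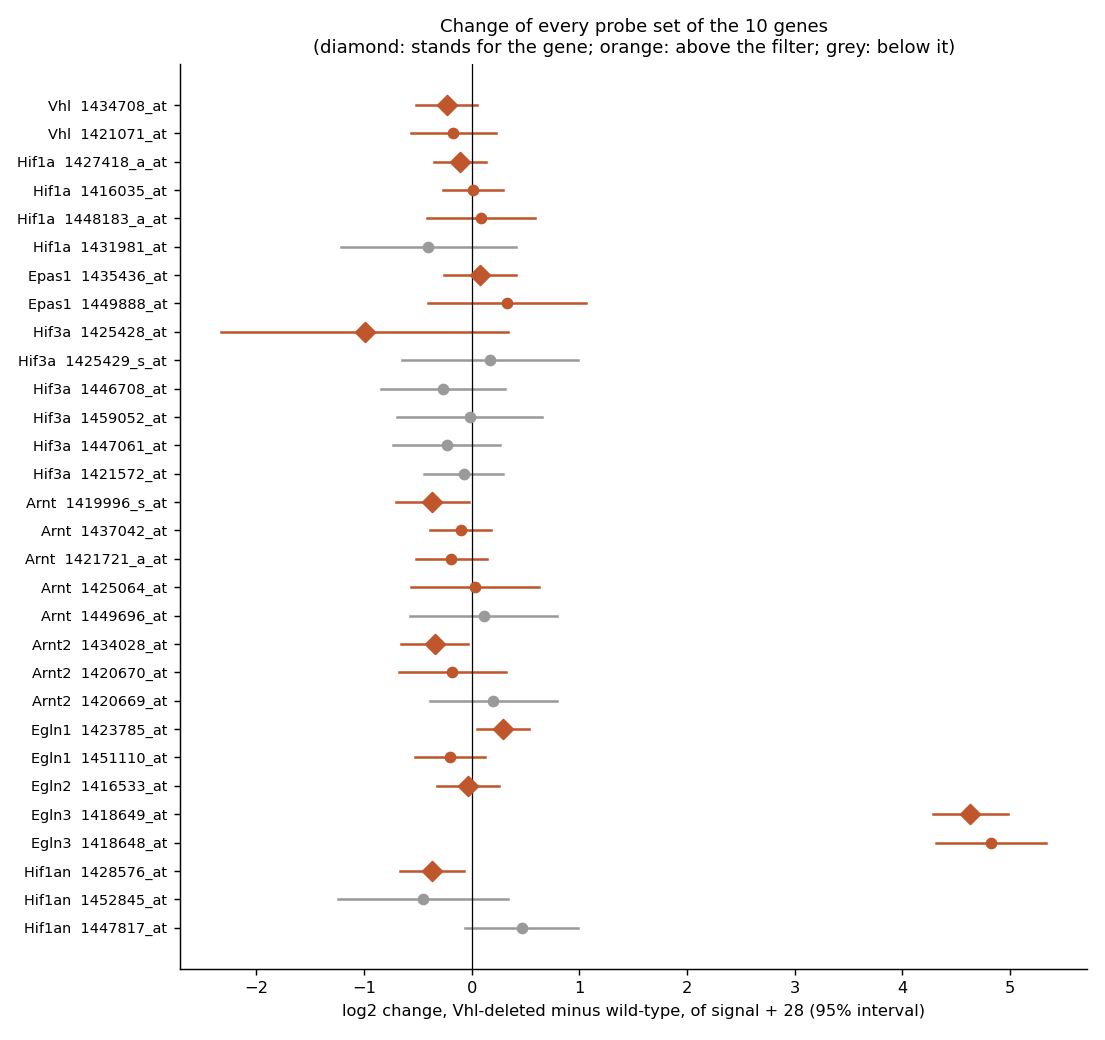
Log2 change with its 95% interval (Vhl-deleted minus wild-type, signal + 28) for all 30 probe sets, with diamonds for the probe set that stands for its gene, orange for probe sets above the filter on low values and grey for those below it. The 2 Egln3 probe sets lie at 4.63 and 4.83, and the 2 Egln1 probe sets lie on either side of 0, at 0.29 and -0.20.

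The promoter windows of the prolyl hydroxylase genes are shown because the change of Egln3 lay far from those of its paralogues. Each window holds 250 bases before and 50 after a transcription start, from RefSeq on GRCm38.p6, written 5′ to 3′ along the gene. Capitals mark the HIF-binding core letters ACGTG or GCGTG, searched on both strands (CACGT and CACGC on the other strand). The Egln3 window lies at chr12:54203825-54204124, the Egln1 window at chr8:124949205-124949504 and the upstream one of 2 Egln2 windows at chr7:27166753-27167052, all on the minus strand.
Egln3: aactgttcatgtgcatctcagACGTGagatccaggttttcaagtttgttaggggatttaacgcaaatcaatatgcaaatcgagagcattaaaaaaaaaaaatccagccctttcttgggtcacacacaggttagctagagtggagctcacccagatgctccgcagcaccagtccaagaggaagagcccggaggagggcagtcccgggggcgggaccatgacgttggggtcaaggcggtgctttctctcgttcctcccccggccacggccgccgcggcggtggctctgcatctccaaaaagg
Egln1: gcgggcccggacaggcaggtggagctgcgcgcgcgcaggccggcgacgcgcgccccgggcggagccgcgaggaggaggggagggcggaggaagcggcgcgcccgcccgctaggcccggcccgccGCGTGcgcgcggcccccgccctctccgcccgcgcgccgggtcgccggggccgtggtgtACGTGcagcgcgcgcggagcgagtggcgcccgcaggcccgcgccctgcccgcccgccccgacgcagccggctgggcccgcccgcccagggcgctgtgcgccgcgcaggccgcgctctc
Egln2: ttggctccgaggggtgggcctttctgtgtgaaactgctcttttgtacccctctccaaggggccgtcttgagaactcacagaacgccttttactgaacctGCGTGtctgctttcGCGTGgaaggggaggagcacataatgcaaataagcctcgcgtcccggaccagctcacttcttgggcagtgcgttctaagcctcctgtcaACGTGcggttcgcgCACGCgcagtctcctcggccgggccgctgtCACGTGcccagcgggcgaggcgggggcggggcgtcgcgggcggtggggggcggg
The Egln3 window held 1 ACGTG, at position -229 from the start. The Egln1 window held 1 ACGTG at -68 and 1 GCGTG at -126. This Egln2 window held 3 of each, with 2 of the ACGTG matches overlapping in a CACGTG that reads the same on both strands. The other Egln2 window, at chr7:27165679-27165978, held 1 GCGTG and 0 ACGTG, with 49.3% G and C. The windows shown differ in base composition, with 54.7% G and C in Egln3, 86% in Egln1 and 64.3% in Egln2. Over all 32851 windows of this length, 19.6% held ACGTG, 32.4% GCGTG and 43.8% either. The table was matched for 9 of the 10 genes, all but Epas1, and 6 of these 9 held a match; the windows of Vhl, Arnt2 and Hif1an held none. Such a match is a string of letters and not a measured binding site.

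Hif1an, the asparaginyl hydroxylase gene, was lower in every Vhl-deleted array without passing the test. Its main probe set, 1428576_at, read 725, 777 and 847 in controls and 543, 599 and 662 in mutants. The highest Vhl-deleted array lay below the lowest wild-type one. The means were 783 ± 61.1 and 601 ± 59.8 (SD, n = 3), a change of -0.37 (SE 0.12, 95% interval -0.66 to -0.08, adjusted p = 0.870), which did not pass. The other Hif1an probe sets lay below the filter and differed by -0.45 (1452845_at) and 0.47 (1447817_at). The latter read 29.9, 27.0 and 32.3 in controls and 54.8, 44.9 and 55.5 in mutants, without overlap, at a level where the signal is close to the pseudocount.

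Over all 30 probe sets, 20 passed the filter and the 10 below it belong to Hif1a, Hif3a, Arnt, Arnt2 and Hif1an. The groups did not overlap in 9 of the 30, where this held for 9.78% of all probe sets. Of these 9, 4 were higher in the Vhl-deleted arrays (Egln1, both of Egln3, and 1 of Hif1an) and 5 lower (1 each of Vhl, Arnt2 and Hif1an, and 2 of Arnt). Probe sets of 1 gene share their RNA and are not independent of each other.

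Most of these genes varied little between mice of a group. The pooled within-group SD of the log2 values was 0.08 for Hif1a and Egln1, 0.10 for Vhl and 0.12 for Hif1an, against a median of 0.20 over all genes. Hif3a stood out with 0.95. The median over all genes was not matched for brightness. The main probe set was brighter than 96.5% of all probe sets for Hif1a, 92.3% for Egln1, 78.7% for Vhl and 79% for Hif1an. For Hif3a this share was 54%, and the part of brightness in the spread was not tested. Wild-type replicate 3 had the highest wild-type value in 7 of the 10 genes (Hif1a, Epas1, Arnt, Arnt2, Egln1, Egln2 and Hif1an). The share of all genes for which this held was not computed, so the count is not a trait of these genes. This array also had the highest mean log2 level of the podocyte markers, 13.1, where replicates 1 and 2 of that group had 12.6 and 12.7. Without it, the changes were -0.29 for Arnt, -0.29 for Arnt2, -0.31 for Hif1an, 0.34 for Egln1, -0.25 for Vhl and 4.61 for Egln3. With the tubule covariate they were -0.26, -0.35, -0.35, 0.33, -0.23 and 4.66 in the same order. Under both settings Egln3 passed and no other of the 10 genes did.

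**Figure D3:**
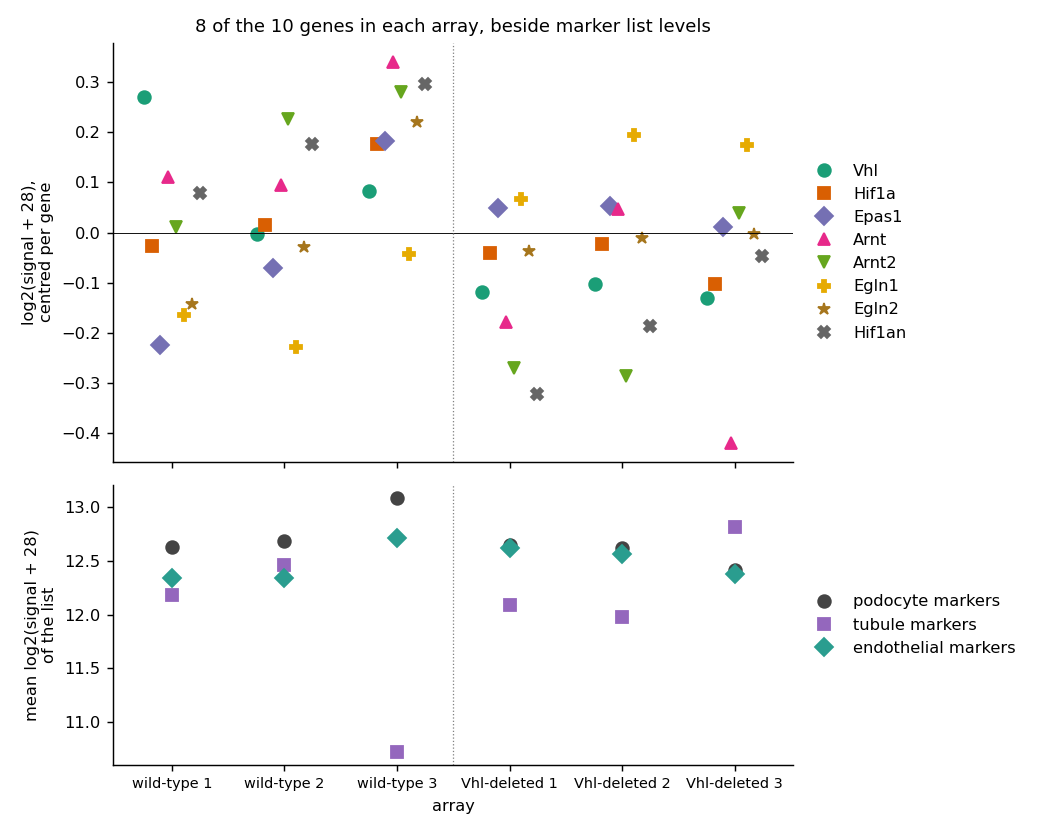
Upper panel: log2(signal + 28) of 8 of the 10 genes in each array, centred on the gene's mean over the 6 arrays (Egln3 and Hif3a, with wider ranges, are left out). Lower panel: mean log2 level of the podocyte, tubule and endothelial marker lists in the same arrays, where wild-type replicate 3 has the lowest tubule level, 10.7, and the highest podocyte level, 13.1.

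The neighbours of these genes in the pathway were taken from 4 lists. Of the 39 genes tested in them, 0 rose and 0 fell with limma, and 4 had an unadjusted p below 0.05, beside 4.92% of all genes. Among the ligase and its regulators, 10 of 12 listed genes were tested. Their median change was -0.01 (4 above 0, 6 below), beside 0.00 over all genes tested. With median scaling it was -0.06, where the median over all genes moved as well, to -0.05. When arrays were left out in turn, the list median ran from -0.04 to 0.03, above 0 without Vhl-deleted replicate 2 (0.03) or 3 (0.01). The subunits that hold VHL in the ligase gave small values: 0.10 for Elob, -0.02 for Eloc and -0.05 for the scaffold gene Cul2. Lowest in p was Ube2d1, a ubiquitin-conjugating enzyme gene, at 1247 ± 32.4 in controls and 979 ± 84.8 (SD, n = 3) in mutants, without overlap, a change of -0.34 (adjusted p = 0.810). Next were Usp33, a deubiquitinase gene, at -0.13 and Nedd8, the modifier that activates cullins, at 0.11.

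Among the cofactors and proteins that act on HIF stability, 12 of 16 genes were tested, with a median of -0.05 (3 above 0, 9 below). This median was -0.10 with median scaling (-0.05 over all genes) and -0.09 without Vhl-deleted replicate 3. Ep300, the coactivator gene, was at 2189 ± 91.3 in controls and 1781 ± 153 (SD, n = 3) in mutants, without overlap, a change of -0.30 (adjusted p = 0.917). Hsp90aa1, a chaperone gene, was at -0.30 (adjusted p = 0.944), and Wdr83, a scaffold protein gene, was at 0.47 (adjusted p = 0.941), both also without overlap. The groups did not overlap in 3 of these 12 genes and 1 of the 10 ligase genes, where this held for 10.7% of all genes. In the other pathway lists it held for 0 genes. Cited2, which encodes a HIF-induced competitor for Ep300, was at 0.19 (adjusted p = 0.944), and Crebbp at -0.08.

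The transcription factors related to HIF by their bHLH-PAS domains had 5 of 11 genes tested, with a median of 0.05. Ahr, the dioxin receptor gene that shares Arnt as a partner, was at 0.24 (adjusted p = 0.944), and Clock at -0.14. Arntl, also called Bmal1, was at -0.18 (SE 0.51) and varied widely within the groups. It read 970.5, 352 and 1088 in controls and 1076, 653 and 356 in mutants. The median changed with the arrays used: leaving out wild-type replicate 2 gave -0.25 and leaving out the mutant replicate 1 gave -0.26, and it was 0.21 without Vhl-deleted replicate 3 or with the tubule covariate. Of the relatives of the HIF hydroxylases, 12 of 13 were tested, with a median of 0.05 (9 above 0, 3 below). This median was 0 with median scaling, beside -0.05 over all genes. When arrays were left out in turn, it ran from 0.015 without Vhl-deleted replicate 3 to 0.10 without Vhl-deleted replicate 2. Jmjd4 was at 0.46, Ogfod3 at 0.18 and Ogfod2 at -0.17, each with an adjusted p of 0.944.

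**Figure D4:**
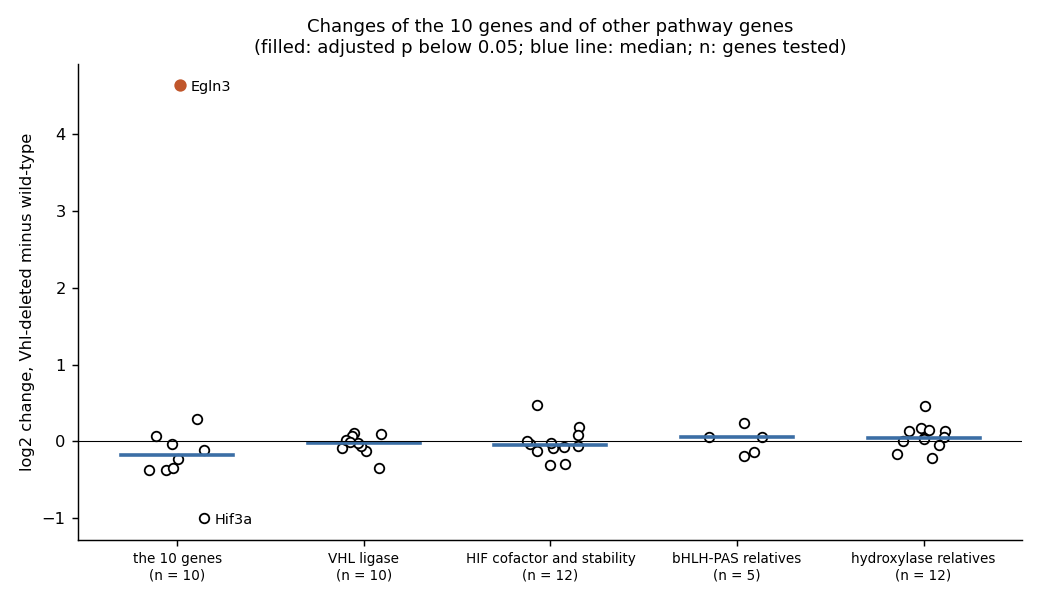
Log2 change (Vhl-deleted minus wild-type) of the 10 genes and of the genes tested in the 4 pathway lists, 1 point per gene, filled where the adjusted p passed, with the list median as a blue line. Egln3 is the single filled point, at 4.63, and all genes of the 4 lists lie between -0.34 and 0.47.

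Egln3 had the widest range of the 10 genes over the 6 arrays, 4.90 on the log2 scale. The 5 genes of the whole table whose centred log2 values lay nearest to it over these 6 arrays were Ngb, Zbtb8b, AA467197, Efhd1 and Ppp1r3c. Since they were chosen for lying near a profile that separates the groups, their own difference between the groups is a description and is given no test. Zbtb8b and AA467197 had control means of 34.1 and 19.2, near or below the pseudocount, and passed the filter only through the mutants. The root mean square distances from Egln3 were 0.65, 0.68, 0.90, 1.18 and 1.19. All of them had smaller excursions: Ngb, the neuroglobin gene, reached 1.79, 1.88 and 1.52 above its mean in Vhl-deleted replicates 1 to 3, where Egln3 reached 2.501, 2.41 and 2.03. The distance measure favours genes with a wide range.

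**Figure D5:**
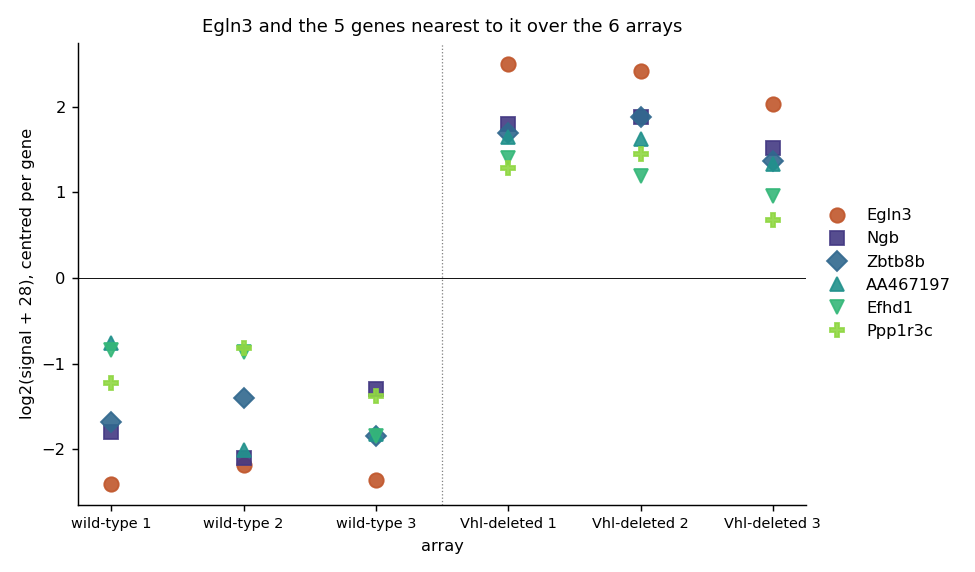
Log2(signal + 28), centred on each gene's mean, of Egln3 and the 5 genes nearest to it by root mean square distance, in each of the 6 arrays. The 3 wild-type arrays lie below 0 and the 3 Vhl-deleted arrays above 0 for all 6 genes, with Egln3 at 2.03 to 2.501 in the latter.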

How the data were processed

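Isolated glomeruli of 6 mice, 3 wild-type and 3 Vhl-deleted, were profiled on 1 Affymetrix array each. Each deposited table holds intensities (linear MAS5 signals); MAS5 is the tool in the submitters' processing notes, which give no version for it. Every array had the same trimmed mean (2% left out at each end). Detection calls were not used here. Of 45101 probe sets, 64 are controls and 34945 had 1 symbol in the array annotation (932 several, 9160 none); 34741 of these were matched by Entrez number to a RefSeq table, used for names. No pair of arrays held identical values.

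Values were taken as log2(signal + 28), 28 being the 25th percentile. The upper 50% of probe sets by mean log2 value were kept, and each of 11159 genes was represented by its brightest remaining probe set. The test was limma 3.58.1, run under R 4.3.3 (lmFit and eBayes with intensity trend, Benjamini-Hochberg over all genes, threshold 0.05). A second limma fit over all 45037 probe sets, without a filter, gave every probe set a value. Unadjusted limma p-values and intervals come from the same fits. Differences between related genes, and, added after the values were seen, between probe sets of 1 gene, were tested by exact permutation of the arrays. The scripts were tested on simulated data. The number of arrays limits the precision. The 10 genes and all lists were chosen with earlier results of these data known. From each pathway list the members that passed, or up to 3 of lowest p, are named under the rule; Elob, Eloc, Cul2, Cited2 and Crebbp were added for their role after their values were seen. Alternatives changed the scaling, pseudocount, filter, probe set rule, variance model, array weights, replicate block and tubule covariate, and left out each array.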

Additional observations from a re-analysis of the deposited data

How the results depend on the processing

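Egln3 passed the threshold under every alternative run, with a change between 4.17 (pseudocount 100) and 4.85 (pseudocount 1) and limma adjusted p between 3.33e-06 and 0.0197. It was the only 1 of the 10 genes that passed under any of them. The correlation of same-numbered deviations from the group means was -0.02, -0.41 and -0.51 for numbers 1 to 3. These values cannot decide whether the numbers pair the arrays, because differences in tubule signal also enter the deviations. Among the arrays numbered 3, the summed tubule marker signal was the lowest of all for the control (39350) and the highest for the mutant (158800). With the replicate block, 1 gene rose, 0 fell, and the limma adjusted p of Egln3 was 0.0197.

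The count of genes that rose, 8, became 30 with array weights, 31 with the tubule covariate and 14 when the filter used the mean signal on the linear scale, an alternative added after seeing the data. The count that fell, 1, became 0 with the mean of kept probe sets and without intensity trend, 3 with array weights and 4 with the tubule covariate. Leaving out each array in turn gave 1 to 12 genes that rose and 0 to 1 that fell; without Vhl-deleted replicate 1, 1 rose, without Vhl-deleted replicate 2, 3 rose, and without wild-type replicate 2, 5 rose. The cause was not tested.

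Small changes turned sign. Epas1 was at -0.0084 with quantile normalization, and at -0.0179 to 0.19 when arrays were left out. Egln2 was at 0.0432 with array weights and 0.0362 with the tubule covariate, and at -0.11 to 0.0681 when arrays were left out. Among probe sets, quantile normalization turned 1435436_at of Epas1 (-0.0084) and 1425064_at of Arnt (-0.0152), median scaling turned 1416035_at of Hif1a (-0.0415) and 1425064_at (-0.019), pseudocount 100 turned 1459052_at of Hif3a (9e-04), and the tubule covariate turned 1425064_at (-0.0943) and 1416533_at of Egln2 (0.0362). When arrays were left out, sign changes occurred in Hif1a 1416035_at (-0.0516 to 0.0817), Hif1a 1448183_a_at (-0.0745 to 0.2919), Epas1 1435436_at (-0.0179 to 0.1852), Epas1 1449888_at (-0.0913 to 0.5502), Hif3a 1421572_at (-0.1364 to 0.0036), Hif3a 1425429_s_at (-0.1107 to 0.488), Hif3a 1459052_at (-0.2912 to 0.1885), Arnt 1425064_at (-0.1407 to 0.2074), Arnt 1449696_at (-0.0906 to 0.2874) and Egln2 1416533_at (-0.1127 to 0.0681). Dim probe sets, near the pseudocount, allow no order of their values.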
